A study of Mus musculus with 4 samples.

Results

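The 33 genes described here are transcripts that mark endothelium, the cell layer that lines blood and lymphatic vessels, read in RNA of sorted mammary tumor cells. They were chosen by gene symbol, and each of the 33 symbols matched 1 row of the 54532 genes in the deposited count tables. The tumors arose from C57BL/6 mouse MMTV-PyMT cells, in which the MMTV promoter drives the polyoma middle T antigen in mammary epithelium, and which were placed by MFP injection. Tumor cells carrying an mCherry reporter of the Notch ligand gene Dll1 made up 2 irradiated libraries, with targeted radiation on day 30, and 2 unirradiated libraries, with none. All 4 libraries came from mCherry-positive cells sorted after staining for CD45, CD31 and TER119, antigens of blood cells, endothelium and red cells, so the sort was meant to leave endothelium out. No age is given, nor whether replicates are separate animals, so a p-value here reflects a spread that may be technical. The codes that open the sample titles split as the treatment does, so radiation and whatever those codes stand for cannot be told apart.

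Endothelial cells depend on VEGF receptors for growth, on angiopoietin receptors for vessel stability, and on VE-cadherin and claudin-5 to seal their junctions. ETS factors such as ERG and the SOXF factors SOX7, SOX17 and SOX18 hold their identity. In tumors, new vessels are leaky and carry PLVAP, and tip cells at the ends of sprouts make ESM1 and apelin.

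Endothelial transcripts were scarce in 3 libraries and abundant in 1. The members summed to 143 CPM (counts per 1000000, with library sizes scaled by TMM) in irradiated 1 and 1971 CPM in irradiated 2, against 85.0 and 82.3 CPM in unirradiated 1 and 2. The irradiated mean was 1057 ± 1292 CPM and the unirradiated mean 83.7 ± 1.91 CPM (SD, n = 2 each), so the irradiated SD was larger than its mean. Irradiated 2 held 23.5 times the unirradiated level (95% counting interval 22.7 to 24.4) and irradiated 1 held 1.71 times (1.62 to 1.80). The unirradiated libraries differed from each other by 1.03 times (0.962 to 1.11). As a share of all counts, the members took 0.0142% and 0.196% in the irradiated libraries, against 0.00849% and 0.00830% in the unirradiated ones. In bulk RNA, fewer cells of a type and less RNA per cell cannot be told apart. Intervals cover counting error only.

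**Figure D1:**
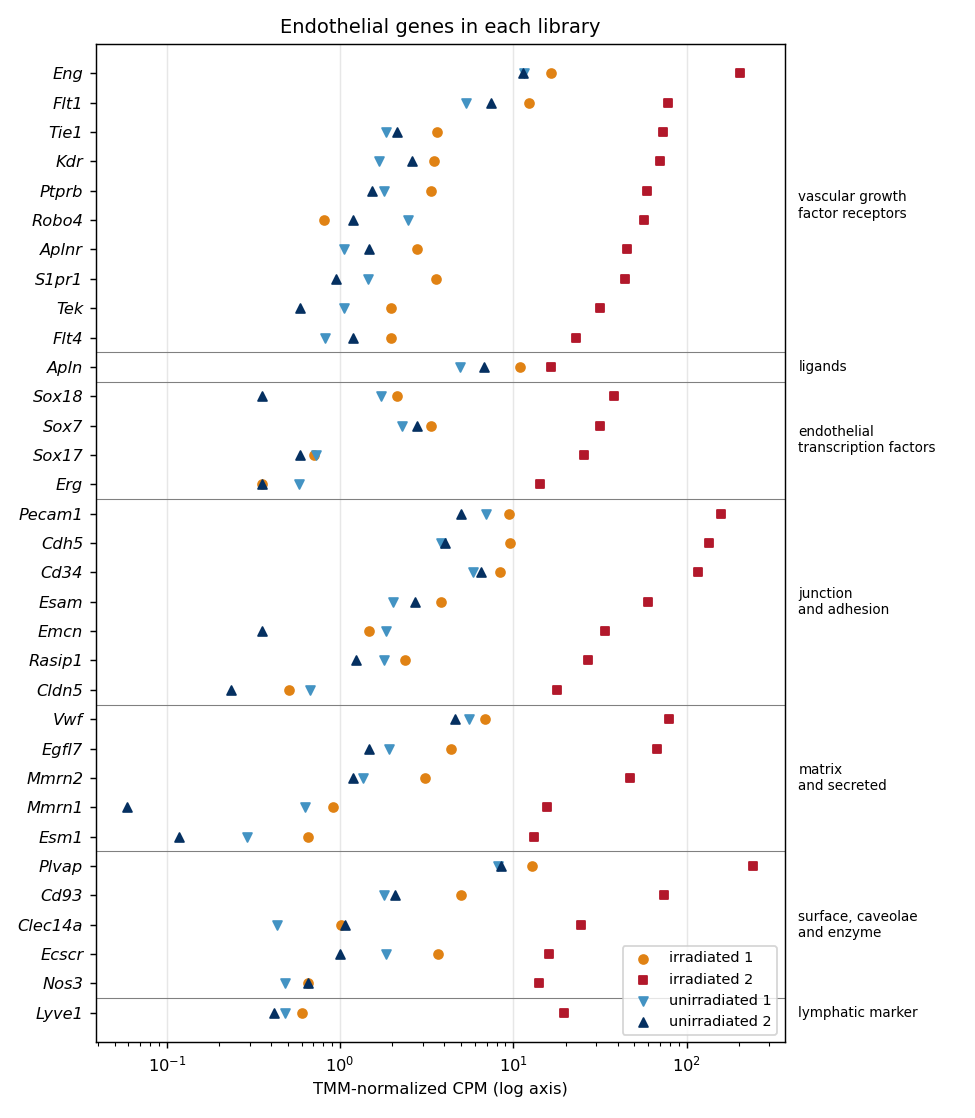
TMM-normalized CPM of the 33 endothelial genes on a log axis, 1 row per gene grouped by role, with circles and squares for irradiated 1 and 2 and triangles for unirradiated 1 and 2. Irradiated 2 was the highest library in all 33 rows, while irradiated 1 lay above both unirradiated libraries in 27.

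All 33 members had a count in every library and all 33 were tested. The filter's level, 10 counts at median depth, was 0.515 CPM, and 9 members were at or below it in at least 1 unirradiated library. Esm1 and Lyve1 were below it in both, so they passed the filter through the irradiated libraries alone. The edgeR quasi-likelihood test called 0 members higher and 0 lower in irradiated against unirradiated libraries, at a background of 0% of 15993 tested genes called higher and 0% called lower. The members' log2 fold changes ran from 1.23 to 5.01 with a median of 4.10, against a median of 0.00396 over all tested genes. Their SEs ran from 0.32 to 1.77, and their adjusted p from 0.489 to 0.584. At an unadjusted p under 0.05 edgeR held 29 of the 33, beside 9.25% of all tested genes. At an adjusted p limma-voom called 0 members, and at an unadjusted p under 0.05 it held 1 of the 33, beside 6.02% of all tested genes.

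The irradiated pair lay wholly above the unirradiated pair in 27 of the 33 members (81.8%) and in 20.3% of all tested genes. The spread within a pair, as edgeR's biological coefficient of variation, was 39.8% for the irradiated and 5.93% for the unirradiated libraries. This spread may be technical. The remaining 6 members split by where irradiated 1 lay. In Sox17, Emcn, Cldn5 and Clec14a irradiated 1 lay between the unirradiated libraries, and in Robo4 and Erg it lay below both. Beyond counting error, irradiated 1 was above the unirradiated level in 24 of the 33 members. It was below that level in 1, Robo4 (0.429 times, 0.233 to 0.745). No such share over all tested genes is given here.

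Promoter sequences from RefSeq (GRCm38.p6), read 5′ to 3′ from 250 bases before to 50 after the RefSeq start, were matched for 17 of the 33 members. A promoter of 4 members is shown: Eng and Tie1, receptors of the common pattern, Robo4, the member with the widest gap between the irradiated libraries, and Apln, the one with the narrowest. Capitals mark the letters AGGAAG or CGGAAG or their reverse complements, which hold the core that ETS factors bind. The windows lie at chr2:32646345-32646644 (plus strand) for Eng, chr4:118489800-118490099 (minus strand) for Tie1, chr9:37401722-37402021 (plus strand) for Robo4 and chrX:48034804-48035103 (minus strand) for Apln.
Eng: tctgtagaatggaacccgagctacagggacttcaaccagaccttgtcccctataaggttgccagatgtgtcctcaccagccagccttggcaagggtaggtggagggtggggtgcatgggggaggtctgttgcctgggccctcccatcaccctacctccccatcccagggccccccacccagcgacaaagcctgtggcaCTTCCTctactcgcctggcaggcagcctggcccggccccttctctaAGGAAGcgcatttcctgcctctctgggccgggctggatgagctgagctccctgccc
Tie1: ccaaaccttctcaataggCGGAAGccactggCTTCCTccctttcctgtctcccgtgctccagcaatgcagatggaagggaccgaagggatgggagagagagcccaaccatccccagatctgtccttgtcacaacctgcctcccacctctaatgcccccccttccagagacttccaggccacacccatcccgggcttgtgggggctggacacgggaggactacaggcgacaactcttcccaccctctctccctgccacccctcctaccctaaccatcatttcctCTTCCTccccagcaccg
Robo4: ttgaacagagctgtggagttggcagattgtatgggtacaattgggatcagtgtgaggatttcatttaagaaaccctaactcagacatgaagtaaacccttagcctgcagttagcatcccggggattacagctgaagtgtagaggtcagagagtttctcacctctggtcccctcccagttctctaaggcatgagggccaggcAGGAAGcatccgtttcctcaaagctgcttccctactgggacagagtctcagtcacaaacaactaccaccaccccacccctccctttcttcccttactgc
Apln: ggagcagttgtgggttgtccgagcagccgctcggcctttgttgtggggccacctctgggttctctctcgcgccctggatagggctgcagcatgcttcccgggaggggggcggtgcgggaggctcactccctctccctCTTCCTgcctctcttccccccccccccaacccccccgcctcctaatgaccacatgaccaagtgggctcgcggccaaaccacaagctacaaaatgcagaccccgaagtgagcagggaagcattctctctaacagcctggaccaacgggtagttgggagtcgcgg

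The ETS letters were found in 3 places for Tie1, 2 for Eng, and 1 each for Robo4 and Apln. Over the members, 11 of 21 RefSeq promoter windows (52.4%) held them on either strand, as did 46.5% of all 32851 mouse windows. The SOX letters ACAAAG or ACAATG were in 6 of the 21 (28.6%) and in 28.6% of all windows. No word belongs to both sets, but matches of both can share bases. A match is a description of letters in a window and says nothing about binding in these cells.

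Among the receptors, Eng, which encodes the TGF-beta co-receptor endoglin, was the most abundant in CPM. It was at 16.6 and 203 CPM with radiation, against 11.5 and 11.3 CPM without. The groups did not overlap, but nearly all of the gap lay in irradiated 2 (log2 fold change 3.26, SE 1.14, edgeR adjusted p = 0.51). The VEGF receptor gene Kdr was at 3.48 and 70.0 CPM with radiation against 1.68 and 2.60 CPM. Flt1 encodes VEGF receptor 1, which also exists as a soluble decoy. It was at 12.3 and 77.6 CPM with radiation against 5.34 and 7.43 CPM. In irradiated 2 the fold of Flt1 over the unirradiated level was smaller than that of Kdr (12.4 against 33.4 times). In irradiated 1 it was not (1.95 times, 1.63 to 2.34, against 1.66 times, 1.19 to 2.33). Flt4, the receptor gene of VEGF-C on lymphatic and sprouting endothelium, was at 1.97 and 22.9 CPM with radiation against 0.818 and 1.18 CPM. For all 3 VEGF receptor genes the order of libraries was the same, with irradiated 2 far above irradiated 1.

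The angiopoietin receptor gene Tek was at 1.97 and 31.7 CPM with radiation, against 1.06 and 0.590 CPM without, and its partner Tie1 was at 3.63 and 72.9 CPM with radiation against 1.83 and 2.12 CPM. Ptprb, which encodes the phosphatase that restrains TIE2, was at 3.33 and 59.4 CPM with radiation against 1.78 and 1.53 CPM. These genes stood close together in fold, irradiated 2 exceeding irradiated 1 by 16.1 times for Tek, 20.1 times for Tie1 and 17.8 times for Ptprb. S1pr1, a sphingosine-1-phosphate receptor gene that lymphocytes also express, was at 3.58 and 44.2 CPM with radiation against 1.44 and 0.944 CPM (log2 fold change 4.30, SE 1.26, edgeR adjusted p = 0.491). Aplnr, the apelin receptor gene, was at 2.77 and 45.4 CPM with radiation against 1.06 and 1.47 CPM. Robo4, a guidance receptor gene largely restricted to endothelium, broke the pattern. It was at 0.807 and 57.0 CPM with radiation against 2.45 and 1.18 CPM, so irradiated 1 was the lowest library and irradiated 2 the highest.

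Apln, which encodes the ligand apelin, was the only ligand on the list and the member with the smallest p. It was at 10.9 and 16.4 CPM with radiation, against 4.91 and 6.72 CPM without. Its irradiated libraries lay close together and above both unirradiated ones, yet it did not pass the test (log2 fold change 1.23, SE 0.32, edgeR adjusted p = 0.489). Apelin is also known to be made by cells outside the vessel wall. In the unirradiated libraries Apln ranked 3 of the 33 members by RPKM (CPM per kilobase of gene length) in both, and in irradiated 1 also 3, but in irradiated 2 it ranked 27.

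The 4 transcription factor genes were low outside irradiated 2. Sox18 was at 2.12 and 38.1 CPM with radiation, against 1.73 and 0.354 CPM without (log2 fold change 4.23, SE 1.52, edgeR adjusted p = 0.514). Sox17, the SOXF gene of arterial endothelium, was at 0.706 and 25.6 CPM with radiation against 0.722 and 0.590 CPM, which left irradiated 1 inside the unirradiated range. Sox7 was at 3.33 and 31.7 CPM with radiation against 2.26 and 2.77 CPM. Erg, the ETS factor gene, was at 0.353 and 14.2 CPM with radiation against 0.577 and 0.354 CPM, from only 7 counts in irradiated 1 and 12 and 6 in the unirradiated libraries. Of these 4 genes Sox17 and Erg showed no step in irradiated 1, and that of Sox7 was within counting error (1.34 times, 0.961 to 1.85). Sox18 was at 1.90 times the unirradiated level there (1.21 to 2.99), with only 6 counts in unirradiated 2. Sox17 shares 16.9% of its exon bases with the antisense gene Gm37587, which had 0 counts in every library.

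Pecam1, the gene of CD31 itself, was present in each sorted population. In mm10 it (ENSMUSG00000020717) lies on chromosome 11 from 106654217 to 106750628. It was at 9.48 and 158 CPM with radiation, against 6.98 and 4.95 CPM without. Irradiated 2 thus stood at 26.0 times the unirradiated level (22.7 to 29.8) and irradiated 1 at 1.56 times (1.28 to 1.90). The log2 fold change was 3.80 (SE 1.31, edgeR adjusted p = 0.503). Platelets and some leukocytes also carry CD31. Ptprc, the gene of CD45, another antigen of the sort, was at 9.63 and 77.2 CPM with radiation against 2.41 and 1.18 CPM.

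Cdh5, which encodes VE-cadherin, was at 9.58 and 134 CPM with radiation, against 3.80 and 4.01 CPM without. The unirradiated libraries lay close together, below both irradiated ones (log2 fold change 4.20, SE 1.27, edgeR adjusted p = 0.492). Cd34, a sialomucin gene that fibroblasts and progenitors share, was at 8.42 and 117 CPM with radiation against 5.82 and 6.55 CPM, and Esam, another junction gene, at 3.83 and 59.8 CPM with radiation against 2.02 and 2.71 CPM. Cldn5, the gene of claudin-5, was at 0.504 and 17.9 CPM with radiation against 0.674 and 0.236 CPM, from 10 counts in irradiated 1. Emcn, which encodes the surface sialomucin endomucin of veins and capillaries, was at 1.46 and 33.9 CPM with radiation against 1.83 and 0.354 CPM. Both Cldn5 and Emcn left irradiated 1 between the unirradiated libraries. Rasip1, a gene of vessel lumen formation, was at 2.37 and 26.8 CPM with radiation against 1.78 and 1.24 CPM, and it shares 42.9% of its exon bases with other genes.

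Of the matrix and secreted products, Vwf, the gene of von Willebrand factor, was at 6.86 and 79.3 CPM with radiation, against 5.53 and 4.60 CPM without (log2 fold change 3.08, SE 1.12, edgeR adjusted p = 0.514). Egfl7, which carries the hairpin of miR-126 in an intron, was at 4.34 and 67.9 CPM with radiation against 1.92 and 1.47 CPM. The matrix genes Mmrn2 and Mmrn1 were at 3.08 and 47.4 CPM with radiation against 1.35 and 1.18 CPM, and at 0.908 and 15.6 CPM with radiation against 0.626 and 0.0590 CPM. Esm1, the tip cell gene, had the highest log2 fold change of all members, 5.01 (SE 1.58, edgeR adjusted p = 0.496). Its values were 0.656 and 13.2 CPM with radiation against 0.289 and 0.118 CPM, and the unirradiated ones rest on 6 and 2 counts. In each of these 5 genes the groups did not overlap, the irradiated pair being higher, beside 20.3% of all tested genes. In Vwf and Mmrn1 irradiated 1 stood only slightly above unirradiated 1 (6.86 against 5.53 CPM and 0.908 against 0.626 CPM).

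Plvap, which encodes the diaphragm protein of fenestrae and caveolae, was the most abundant member in irradiated 2. In mm10 it (ENSMUSG00000034845) lies on chromosome 8 from 71497765 to 71511752. It was at 12.8 and 242 CPM with radiation, against 8.18 and 8.49 CPM without (log2 fold change 3.93, SE 1.35, edgeR adjusted p = 0.503). Cd93, a receptor gene that myeloid cells share, was at 4.99 and 74.5 CPM with radiation against 1.78 and 2.06 CPM (log2 fold change 4.37, SE 1.31, edgeR adjusted p = 0.492). Ecscr, a small surface protein gene, was at 3.68 and 16.0 CPM with radiation against 1.83 and 1.00 CPM (log2 fold change 2.78, SE 0.81, edgeR adjusted p = 0.491), a narrower gap between the irradiated libraries than in most members. Clec14a was at 1.01 and 24.6 CPM with radiation against 0.433 and 1.06 CPM. Nos3, the endothelial nitric oxide synthase gene, was at 0.656 and 14.02 CPM with radiation against 0.481 and 0.649 CPM, and shares 32.3% of its exon bases with other genes. Irradiated 1 was thus above both unirradiated libraries in Plvap, Cd93, Ecscr and, narrowly, Nos3, but not in Clec14a.

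Lyve1, the hyaluronan receptor gene of lymphatic endothelium and of some macrophages, was at 0.605 and 19.6 CPM with radiation, against 0.481 and 0.413 CPM without (log2 fold change 4.47, SE 1.62, edgeR adjusted p = 0.514). Lyve1 rested on 10 and 7 counts in the unirradiated libraries, below the filter's level in both. Prox1, the transcription factor gene that defines lymphatic endothelium, did not share its pattern, at 8.58 and 8.16 CPM with radiation against 9.09 and 7.61 CPM. Stab1, which lymphatic and sinusoidal endothelium and macrophages share, was at 13.2 and 103 CPM with radiation against 4.28 and 3.36 CPM. Stab2 had 0 and 0.586 CPM, with no count in either unirradiated library.

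The fold between the irradiated libraries was measured gene by gene. Irradiated 2 exceeded irradiated 1 in 33 of 33 members, by a median of 16.4 times (quartiles 12.3 and 20.2), whereas the median of all tested genes was 1.04 times. It exceeded irradiated 1 more than 4-fold in 32 of the 33 (97%), a fold that 5.58% of tested genes passed. The summed members gave 13.8 times (13.3 to 14.3), and the counting intervals of 16 members held that value. Those of Apln, Ecscr, Flt1, Sox7 and Eng lay below it and those of 12 members lay above it. The outer values were 1.51 times for Apln (1.26 to 1.80), 4.34 times for Ecscr (3.35 to 5.69) and 6.33 times for Flt1 (5.52 to 7.28) at one end, and 70.7 times for Robo4 (43.3 to 124) at the other. These folds compare 2 libraries of 1 group, with no replicate of either.

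**Figure D2:**
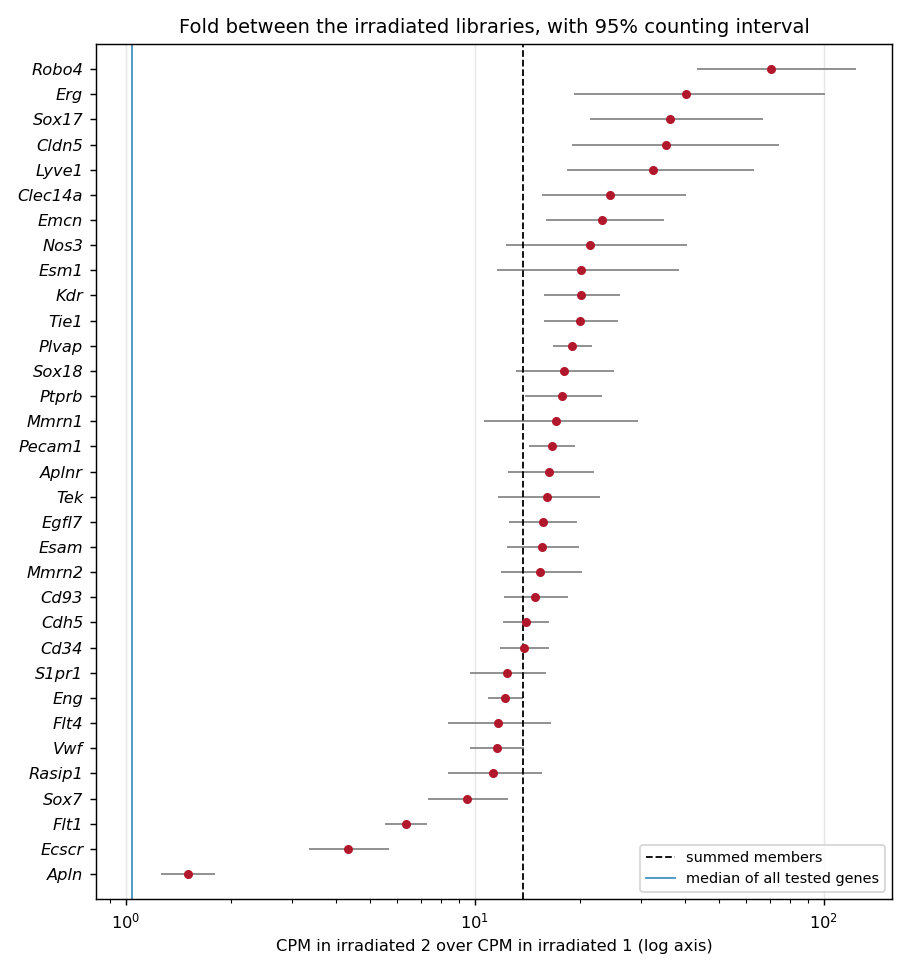
CPM in irradiated 2 over CPM in irradiated 1 for each of the 33 endothelial genes on a log axis, with exact 95% counting intervals, the fold of the summed members as a dashed line (13.8) and the median of all tested genes as a solid line (1.04). Apln, Ecscr and Flt1 lie well to the left of the dashed line, and Robo4 lies farthest to the right at 70.7.

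Set against the unirradiated pair alone, the 2 irradiated libraries gave different sets of calls. In an edgeR fit of irradiated 2 against that pair, all 33 members were called higher, at a background of 15.9% of tested genes, with log2 fold changes from 1.49 for Apln to 5.91 for Esm1. In the fit of irradiated 1 against the pair, 13 members (39.4%) were called higher, at a background of 11.9%. They were Cdh5, Flt1, Apln, Cd93, S1pr1, Egfl7, Ecscr, Plvap, Eng, Pecam1, Mmrn2, Aplnr and Ptprb. Their log2 fold changes in that fit ran from 0.52 for Eng to 1.55 for S1pr1, with Cdh5 at 1.28 (SE 0.22, edgeR adjusted p = 5.23e-07). Robo4 was at -1.20 there (edgeR adjusted p = 0.0854) and Erg at -0.43. Both fits take the spread from the unirradiated pair and assume that the lone irradiated library varies like it. Since the irradiated pair varied far more, the calls compare single libraries and not the treatments.

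By DESeq2 on all 4 libraries 8 members (24.2%) were called higher and 0 lower, at a background of 2.73% of tested genes called higher and 0.35% called lower. They were Esm1 (adjusted p = 0.0069), Flt4 (0.0114), Lyve1 (0.0132), Ecscr (0.0177), Mmrn1 (0.0209), Rasip1 (0.0215), Cldn5 (0.029) and Sox7 (0.0381). Among these, Esm1 and Lyve1 passed the filter through the irradiated libraries alone. The counting interval of irradiated 1 over the unirradiated level held 1 for Lyve1 (0.586 to 2.99), Cldn5 (0.436 to 2.42) and Sox7 (0.961 to 1.85). It lay above 1 for the others called. Of the abundant members, Plvap had a DESeq2 adjusted p of 0.217, Pecam1 of 0.228 and Eng of 0.304. In an edgeR fit with no filter on low counts, all 33 members were called higher, against 4.86% of 27538 genes. The calls thus differed with the tool and the filter, while the sign was positive for all 33 in each fit to all 4 libraries that tested it (the stricter filter tested 26).

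The makeup of the endothelial counts was compared between libraries as each member's share of the 33-gene total. Plvap took 8.92% of it in irradiated 1 (95% Clopper-Pearson interval 7.90 to 10.03) and 12.3% in irradiated 2 (11.97 to 12.64), against 9.62% (8.29 to 11.1) and 10.3% (8.77 to 12.03) in the unirradiated libraries. Apln took 7.62% and 0.833%, against 5.77% and 8.17%, and Flt1 took 8.57% and 3.94%, against 6.28% and 9.03%. Cdh5 was the reverse case in irradiated 1, with 6.70% (5.81 to 7.69) and 6.80% (6.54 to 7.06) in the irradiated libraries, against 4.47% (3.56 to 5.54) and 4.87% (3.80 to 6.13). Irradiated 1 thus resembled the unirradiated libraries in Apln and Flt1 and irradiated 2 in Cdh5. Robo4 took 0.564% and 2.89%, against 2.89% and 1.43%.

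**Figure D3:**
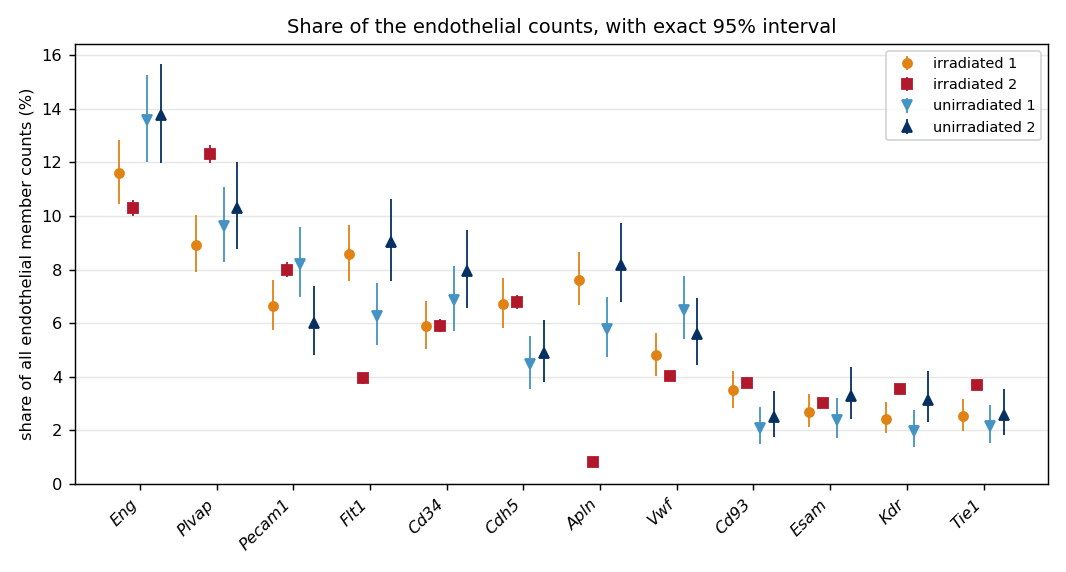
Share of all counts of the 33 endothelial genes taken by each of the 12 genes with the highest mean share, in percent, for irradiated 1 and 2 and unirradiated 1 and 2, with exact 95% binomial intervals. In irradiated 2 Apln falls to 0.833% and Plvap reaches 12.3%.

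On a per-length scale Plvap ranked first and Eng second in all 4 libraries. Plvap was at 6.42 and 122 RPKM in the irradiated libraries, against 4.12 and 4.27 RPKM, and Eng at 4.10 and 50.1 RPKM, against 2.85 and 2.80 RPKM. Cdh5 ranked 4 and 3, against 7 and 4, and Sox18 ranked 8 and 5, against 6 and 22. Across the 33 genes, Spearman's rho of RPKM was 0.731 between irradiated 1 and irradiated 2, 0.869 between irradiated 1 and unirradiated 1, and 0.813 between the unirradiated libraries. The members share library, depth and length scale, so these are descriptions of 4 libraries.

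The unirradiated libraries agreed in the sum but not in every gene. Unirradiated 1 exceeded unirradiated 2 beyond counting error in 6 members, among them Emcn (38 and 6 counts), Sox18 (36 and 6), Mmrn1 (13 and 1) and Robo4 (51 and 20). It lay below unirradiated 2 beyond counting error in Flt1, Clec14a and Apln. For Emcn and Sox18 the gap between the unirradiated libraries was thus wider than the gap between irradiated 1 and unirradiated 1.

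Further endothelial genes were mixed. Of 53 further genes of endothelial identity, subtype and signaling, 49 were tested. None was called by edgeR, and DESeq2 called 20 higher, beside 2.73% of all tested genes, and 0 lower. Without overlap between groups, the irradiated libraries were higher in 29 and lower in 1, beside 20.3% and 20% of all tested genes. Their median log2 difference from the unirradiated mean was 0.38 in irradiated 1 and 3.89 in irradiated 2, against 0.74 and 5.00 for the members. Of the 3 most abundant, Notch1 was at 373 and 263 CPM with radiation, against 278 and 335 CPM. It was thus highest in irradiated 1 and lowest in irradiated 2. The other genes were nearly flat, Ephb4 at 163 and 161 CPM, compared with 160 and 165 CPM, and Palmd at 98.6 and 88.3 CPM, compared with 95.2 and 88.2 CPM. The 3 with the smallest p were Tspan18, at 4.94 and 15.2 CPM with radiation against 0.818 and 0.767 CPM, the homeobox gene Hhex, at 1.51 and 5.70 CPM with radiation against 0.289 and 0.118 CPM, and the ETS gene Ets1, at 75.6 and 126 CPM with radiation against 46.4 and 46.0 CPM.

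Some further genes of that list, picked after their values were seen, differed in where irradiated 1 lay. Aqp1, a water channel gene, was at 15.7 and 310.04 CPM with radiation, against 21.5 and 16.3 CPM without. The selectin genes Selp and Sele were at 4.94 and 84.5 CPM, compared with 6.45 and 3.66 CPM, and at 2.52 and 60.0 CPM, compared with 3.13 and 1.18 CPM. Ackr1, the venular chemokine receptor gene, was at 0.303 and 10.7 CPM, compared with 0.722 and 0.531 CPM. In Aqp1 and Ackr1 irradiated 1 was below both unirradiated libraries, and in Selp and Sele it lay between them. Genes of arterial endothelium were not alike. Gja5 was at 0.353 and 3.94 CPM, compared with 0.481 and 0.118 CPM, and Gja4 at 2.67 and 16.5 CPM, compared with 1.59 and 0.885 CPM. Efnb2 was level between the irradiated libraries, at 57.1 and 57.3 CPM, compared with 44.2 and 48.8 CPM. Hey2, the gene of the list that was lower without overlap, was at 6.00 and 5.01 CPM, compared with 6.54 and 7.43 CPM.

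Vascular ligands, many of which tumor cells also make, were mixed across libraries. Of 17 ligand genes found, 10 were higher in irradiated 2 than in irradiated 1, with a median of 1.33 times. Of the 16 tested, 5 lay above and 2 below both unirradiated libraries, beside 20.3% and 20% of all tested genes. The edgeR test called 0 of them and DESeq2 called 1 higher, beside 2.73% of all tested genes. The ligands named here are the 3 most abundant and the 3 with the smallest p. Vegfa, the main ligand of the VEGF receptors, was at 452 and 216 CPM with radiation, against 229 and 233 CPM, highest in irradiated 1. Pdgfb, the ligand that draws pericytes, was at 111 and 82.1 CPM, compared with 56.3 and 56.1 CPM (DESeq2 adjusted p = 0.0163, edgeR adjusted p = 0.489). Angpt2, the TIE2 ligand that endothelium itself makes, was at 1.87 and 11.7 CPM, compared with 0.722 and 1.24 CPM, and Angpt1 was at 9.58 and 8.74 CPM, compared with 12.8 and 13.3 CPM. Sphk1, the enzyme gene of the S1PR1 ligand, was at 107 and 58.5 CPM, compared with 78.7 and 85.2 CPM.

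Fibroblast, macrophage, lymphocyte and red cell markers were also highest in irradiated 2, and their part in the members' values was not tested. The summed level of 12 fibroblast markers was 931 and 6322 CPM with radiation, against 740.1 and 755 CPM, and that of 12 macrophage markers was 99.8 and 685 CPM, compared with 37.2 and 33.2 CPM. Across these lists edgeR called 0 genes. DESeq2 called higher 10 of 12 macrophage, 8 of 8 tested lymphocyte and 2 of 3 tested red cell markers, beside 2.73% of tested genes. It called 0 fibroblast, pericyte or epithelial markers. Of the 8 platelet markers only 2 were tested, and it called 0 of them. The lymphocyte list summed to 20.5 and 123 CPM, compared with 5.92 and 5.31 CPM, and the red cell list to 5.85 and 35.1 CPM, compared with 2.02 and 4.36 CPM. By sums, irradiated 2 exceeded irradiated 1 by 6.79 times for fibroblast (6.68 to 6.89), 6.86 times for macrophage (6.54 to 7.19) and 6.01 times for lymphocyte markers (5.41 to 6.69), against 13.8 times for the endothelial members. In irradiated 1 the order differed, with macrophage markers at 2.82 times and lymphocyte markers at 3.64 times the unirradiated level, the members at 1.71 times and fibroblast markers at 1.25 times. Against the unirradiated mean, irradiated 2 held 21.9 times the lymphocyte sum (19.0 to 25.3), an interval that holds the members' 23.5 times. By the median gene, its log2 difference was 5.69 for macrophage markers and 5.00 for the members. For the 53 further endothelial genes, the summed fold of irradiated 2 over irradiated 1 was only 2.03 times (2.00 to 2.07). By the median gene that fold was 8.10 times for those genes and 16.4 times for the members. It was 8.42 times for macrophage, 9.29 times for lymphocyte and 6.61 times for fibroblast markers. The larger fold of the members was thus not shared by the further endothelial genes. These list folds compare single libraries, and the differences between lists were not tested.

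**Figure D4:**
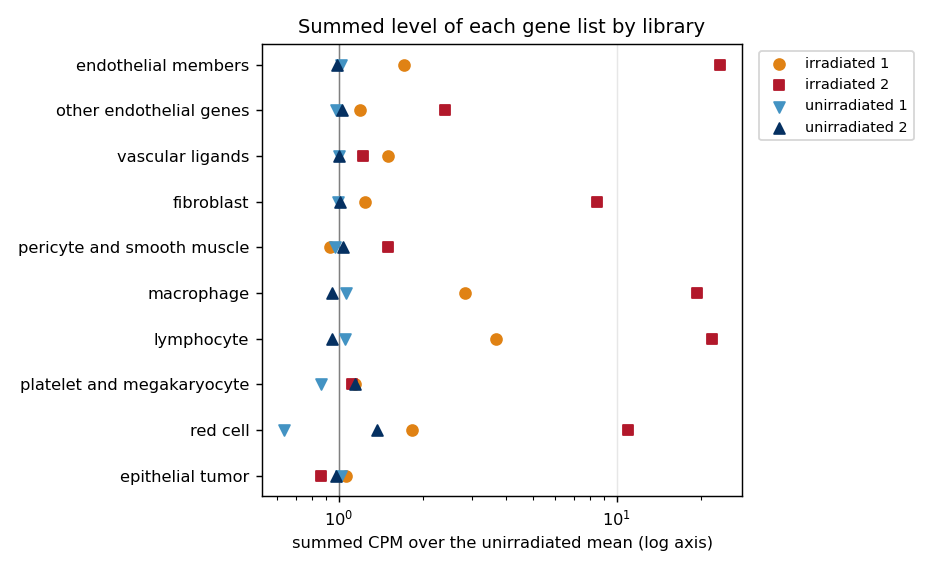
Summed CPM of each gene list over its unirradiated mean, on a log axis, for irradiated 1 and 2 and unirradiated 1 and 2. The endothelial members reach 23.5 times in irradiated 2, near the lymphocyte list at 21.9 times, and lie at 1.71 times in irradiated 1, below the macrophage and lymphocyte lists.

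The fibroblast list was led in abundance by the collagen genes Col3a1, Col1a1 and Col1a2, and Col1a1, Col3a1 and Lum had its smallest p. Col3a1 was at 271 and 2224 CPM with radiation, against 194 and 204 CPM without, and the proteoglycan gene Lum at 10.1 and 65.0 CPM, compared with 7.22 and 7.25 CPM. The macrophage list was led by Lyz2, C1qa and C1qb, and Fcgr1, C1qa and Cd68 had its smallest p. Lyz2, a lysozyme gene, was at 17.4 and 185 CPM, compared with 3.71 and 3.60 CPM, and Fcgr1, an Fc receptor gene, at 1.92 and 10.98 CPM, compared with 0.0481 and 0 CPM. The B cell genes Cd79a, Ms4a1 and Cd79b were among the most abundant of the lymphocyte list or those with its smallest p, with Cd79a at 5.15 and 17.3 CPM, compared with 2.07 and 2.30 CPM. The hemoglobin genes Hba-a1 and Hbb-bs and the heme synthesis gene Alas2 stood for red cells, with Hba-a1 at 2.57 and 15.03 CPM, compared with 0.529 and 1.42 CPM. No macrophage marker was at 0 in the irradiated libraries, and 2 of the 12 were at 0 in unirradiated 2. The platelet and megakaryocyte list differed, with a sum of 14.6 and 14.2 CPM, compared with 10.97 and 14.5 CPM, most of it Itga2b in each library. Pf4, the platelet factor 4 gene, was at 0.0504 and 2.93 CPM, compared with 0.289 and 0.118 CPM. The platelet genes Itga2b and Gp1ba were at 14.1 and 10.1 CPM, compared with 9.82 and 12.9 CPM, and at 0.454 and 1.17 CPM, compared with 0.577 and 1.42 CPM. Pericyte and smooth muscle markers summed to 355 and 572 CPM, compared with 369.7 and 392 CPM, and were led by Notch3, Mcam and Myh11, with Des, Myh11 and Cnn1 at the smallest p. Epithelial markers summed to 12286 and 9974 CPM, compared with 11859 and 11383 CPM, led by Krt8, Krt18 and Epcam, with Krt7, Cldn7 and Krt19 at the smallest p. Krt8 was at 4374 and 3323 CPM, compared with 3962 and 3842 CPM.

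Some members are known from other cell types too. With Cd93, Eng, Lyve1, S1pr1, Flt1, Cd34, Pecam1 and Apln left out, the other 25 members summed to 76.2 and 1261 CPM with radiation, against 46.7 and 41.9 CPM without. Irradiated 2 was then 28.3 times and irradiated 1 was 1.71 times the unirradiated level. The genes left out were picked after their values were seen, and the fold depends on that choice. Their own folds in irradiated 2 ran from 2.87 times for Apln to 43.5 times for Lyve1. In the 26 members that share no exon base with another gene, irradiated 2 and irradiated 1 were 24.9 times and 1.76 times the unirradiated level. Dll1, read by the mCherry reporter, stood at 146 and 80.2 CPM, compared with 130.1 and 129 CPM, and the p53 targets Cdkn1a and Mdm2 were at 237 and 182 CPM, compared with 161 and 157 CPM, and at 133 and 90.5 CPM, compared with 95.8 and 101 CPM.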

How the data were processed

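The authors deposited raw read counts per gene for each library, with gene names, positions and lengths, per the file headers. The joint table equalled the single-library tables at all 54532 genes. Per the labels' protocols, the poly(A) libraries keep no strand. The submitters' processing notes name mm10, STAR 2.5, HTSeq 0.6.1 and DESeq2. Annotation release and counting options: not given in the sources used here. All 33 members have the same position in GENCODE M21, which was used for shared exons. Summed counts were 19931303 and 18903631 in irradiated 1 and 2, against 20817997 and 16811888 in unirradiated 1 and 2.

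Counts were fitted with edgeR 4.0.16 in R 4.3.3 on all genes: filterByExpr (minimum count 10, minimum total 15), TMM scaling, two-sided quasi-likelihood test, Benjamini-Hochberg adjustment over 15993 genes, threshold 0.05. SE is the log2 fold change over the root of F. Log2 differences used a prior count of 2. DESeq2 1.42.0 and limma-voom (limma 3.58.1), other scalings and filters, a replicate block and each library left out were alternatives. Intervals are exact (Clopper-Pearson, 95%), made with SciPy 1.17.1.

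The members, lists and rules were chosen with earlier results of these data known, so they are no independent evidence. Each role's most abundant member, the 5 with the smallest p, Pecam1 and Cdh5 are given in full. Of every other list, the 3 most abundant genes and the 3 with the smallest p are named, and Ptprc, Dll1, Cdkn1a and Mdm2 are always given; 2 genes that the rule names are not reported here. Prox1, Stab1, Stab2, Aqp1, Selp, Sele, Ackr1, Gja4, Gja5, Efnb2, Hey2 and the 8 genes left out as shared with other cells were named after their values were seen.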

Additional observations from a re-analysis of the deposited data

How the results depend on the processing

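Scaling by DESeq2 size factors, upper quartiles or library size alone, the stricter filter (which tested 26 members), limma-voom and an adjusted p threshold of 0.1 called 0 genes and 0 members in either direction, as in the fit reported. DESeq2 called 437 genes higher and 56 lower, and 8 members higher. Without a filter edgeR called 1338 genes higher, 105 lower and all 33 members higher. With the replicate number as a block (replicate block) edgeR called 2 genes and 0 members higher. Whether the numbers pair the libraries is not known. The correlation of same-numbered deviations was -0.0992 across genes, but 2 pairs can neither show nor exclude pairing. With each library left out in turn, edgeR called 0 to 2713 genes higher and 0 to 2355 lower, and 0 to 33 members higher and 0 lower. In the same fits 27 to 33 members lay above and 0 to 2 below the other group without overlap. Beside them, 5014 to 6951 of all 16954 to 17468 tested genes lay above and 5023 to 7269 below. The log2 ratio of summed member CPM in these fits was 0.76 to 4.54, against 3.66 with all 4 libraries. The lowest came without irradiated 2, where Erg (-0.43) and Robo4 (-1.20) turned negative, and the highest without irradiated 1, where Erg was at 4.87 and Robo4 at 4.91. Without the 8 members also known from other cells that ratio was 3.92, and over the 26 members sharing no exon base 3.74, both chosen after seeing the data. The cause of the differences between tools was not tested. With 2 libraries per group and counts as low as 1 per member, depth limits what can be said of the unirradiated level of Mmrn1, Esm1, Cldn5 and Erg.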
